A study of Mus musculus with 7 samples.

Results

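Interferon-stimulated genes are the genes that a cell switches on when it detects an interferon. The 9 examined here are Rsad2, Ifit1, Ifit3, Irf7, Isg15, Oasl2, Bst2, Ifi27 and Usp18, out of 55450 genes in the files, and all 9 were among the 16813 genes with enough reads to test. They were chosen by name to ask whether Rsad2, whose level was higher in the heterozygous knockout libraries of this same study, stood alone or stood with other interferon-induced genes. The values that put Rsad2 on the list are therefore the values of the genotype comparison, and its difference is given as a description with no test.

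Polyadenylated RNA was sequenced from cerebella of mouse pups of the C57BL/6 strain at postnatal day 15. Cerebella came from 4 L3mbtl3 KO/+ mice, which carry 1 knockout allele of L3mbtl3, a gene for a chromatin protein with malignant brain tumour domains, and 3 wild-type (WT) cerebella were set against them. The labels do not state which part of L3mbtl3 was deleted, the litters, or any treatment. L3mbtl3 itself averaged 20.6 ± 2.55 CPM (reads of the gene scaled to a common library size) in KO/+ and 24.2 ± 2.25 CPM in WT (SD, n = 4 and 3), with overlapping groups. Without the deleted part this level does not check the genotype.

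The libraries held 29248342 to 43761782 gene-assigned reads. The labelled tissue was plain in the markers, as all 10 cerebellum markers passed the filter on low counts and Pcp2, a Purkinje cell gene, averaged 2168 ± 229 TPM (a level per length of transcript; SD) over the 7 libraries. In RNA from whole cerebella, fewer cells of a type and less RNA per cell cannot be told apart. No label ties samples to litters, so p-values measure only the spread between these samples.

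Type I and type III interferons bind receptors at the cell surface and activate the kinases JAK1 and TYK2. Their signal reaches the nucleus through a complex that contains IRF9 and binds interferon-stimulated response elements in the promoters of its target genes. Many targets code for antiviral proteins, others amplify the response, as IRF7 does, and others end it, as USP18 does. In brain, microglia and endothelial cells are known for strong interferon responses, and a low level of these genes is also present without infection.

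Because the response element is a known link between such genes, their promoters are shown first. Of the 9 genes, 7 had an entry in the RefSeq promoter table (build GRCm38.p6), which spans 250 bases before to 50 bases after each gene's start. Ifi27 and Usp18 are the other members. The core of the element was searched as GAAA, any 2 bases and GAAA again, on both strands, with overlapping matches counted, and a match is only a description of the letters. A match was present in 5 of the 7 promoters (Rsad2, Ifit1, Ifit3, Isg15 and Bst2), against 3.44% of all 32851 promoters in the table. At least 2 matches were present in 4 of the 7 (Ifit1, Ifit3, Isg15 and Bst2), against 0.225% of all promoters. The window from base -170 to base -41 of these 5 promoters, 130 bases each read along the gene's strand, is printed below with the matches in capitals.
Rsad2, chr12:26456493-26456622, minus strand: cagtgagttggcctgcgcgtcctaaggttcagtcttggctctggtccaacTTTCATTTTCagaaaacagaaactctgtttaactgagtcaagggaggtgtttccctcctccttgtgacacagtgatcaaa
Ifit1, chr19:34640719-34640848, plus strand: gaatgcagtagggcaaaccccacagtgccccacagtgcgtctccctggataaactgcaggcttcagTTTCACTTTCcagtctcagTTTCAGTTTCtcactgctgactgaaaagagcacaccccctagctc
Ifit3, chr19:34583359-34583488, plus strand: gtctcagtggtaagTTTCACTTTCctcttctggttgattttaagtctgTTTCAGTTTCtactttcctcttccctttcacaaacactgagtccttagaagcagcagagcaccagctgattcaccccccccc
Isg15, chr4:156200859-156200988, minus strand: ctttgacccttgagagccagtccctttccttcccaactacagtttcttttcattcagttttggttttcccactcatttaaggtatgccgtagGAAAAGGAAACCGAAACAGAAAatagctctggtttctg
Bst2, chr8:71537513-71537642, minus strand: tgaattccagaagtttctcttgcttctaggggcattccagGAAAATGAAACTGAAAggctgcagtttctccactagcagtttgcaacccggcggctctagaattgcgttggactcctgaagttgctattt

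In Rsad2 the single match ran from -120 to -111 on the strand opposite to the gene. Ifit1 and Ifit3 each held a pair of separate matches, also on the opposite strand, with the same letters in the same order in both genes (TTTCACTTTC, then TTTCAGTTTC). In Isg15 and Bst2 the matches lay on the gene's own strand and overlapped, so that they appear as 1 run of capitals, made of 3 matches in Isg15 and 2 in Bst2. The windows of Irf7 and Oasl2 held no match to these letters.

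As a group mean, the 9 genes lay on the high side together in KO/+ cerebella. KO/+ replicate 4 did not share this, as its sum over the 9 was 13.1 CPM, against 13.3 to 20.4 CPM in WT. Rsad2 was put on the list by this contrast, so its positive sign was fixed beforehand. The other 8 were also positive, with log2 fold changes of KO/+ over WT between 0.45 and 0.98. Of all genes tested, 48.8% were positive. Over all 9, Rsad2 included, the largest was 1.17 and the median 0.66, against a median of -0.0047 for all genes. None of the 9 passed the adjusted threshold of 0.05 in edgeR's quasi-likelihood test, and 0% of the genes tested did. Rsad2 is left out of the counts at an unadjusted p for the same reason. Of the other 8, that test gave 1, Isg15, at an unadjusted p under 0.05, where 1.25% of all genes passed it as higher in KO/+. None of the 8 was on the lower side, where 1.9% of all genes were, and both directions together made 3.15%.

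The count of 0 called genes was the same with DESeq2, limma-voom and limma-trend on TPM. At an unadjusted p under 0.05, edgeR gave 530 genes in either direction, DESeq2 597, limma-voom 497, and limma-trend 566 or 570 with a pseudocount of 1 or 0.1.

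**Figure D1:**
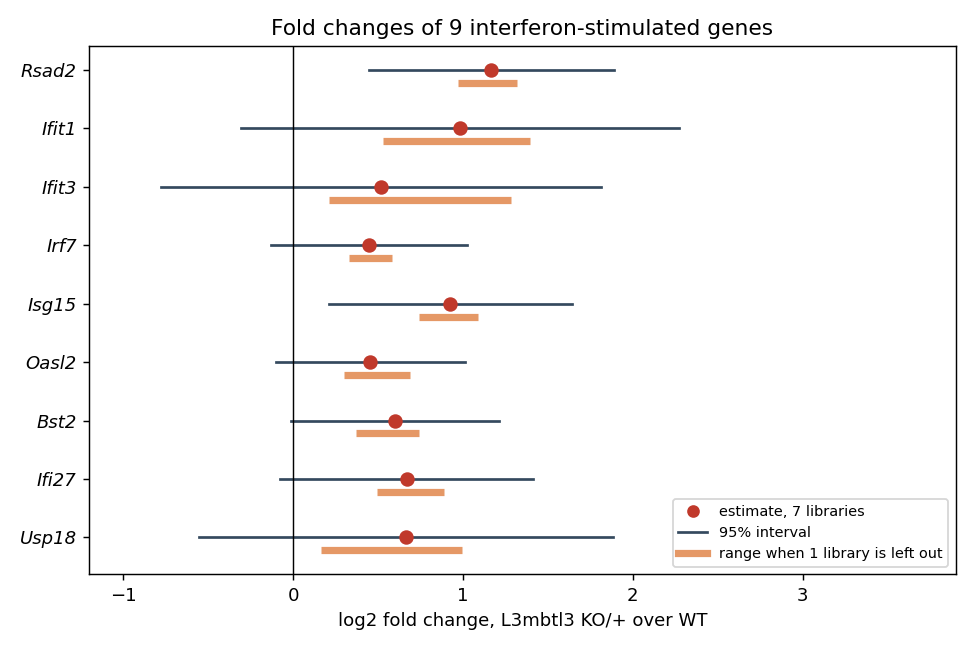
Log2 fold change of KO/+ over WT (x axis) for each of the 9 interferon-stimulated genes (y axis), with the 95% interval from edgeR as a thin line and the range with any 1 library left out as a thick bar; the vertical line at 0 marks equal levels. All 9 points lie to the right of 0, between 0.45 and 1.17. The point and interval of Rsad2 are a description, since this contrast chose it. Among the 8 genes other than Rsad2 the interval of Isg15 alone does not reach 0.

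Rsad2 encodes viperin, a radical SAM enzyme that turns CTP into a nucleotide that ends viral RNA chains. It lies on chr12:26442746-26456452, minus strand (GRCm38, as are all gene positions here). Its level was 1.24, 1.98, 1.62 and 0.913 CPM in KO/+ replicates 1 to 4, against 0.683, 0.758 and 0.491 CPM in WT replicates 1 to 3. The groups did not overlap, KO/+ replicate 2 was the highest and WT replicate 3 the lowest of the 7. The means were 1.44 ± 0.462 CPM in KO/+ and 0.644 ± 0.138 CPM in WT (SD, n = 4 and 3), a log2 fold change of 1.17 (SE 0.31). Its 95% interval, 0.45 to 1.89, makes no allowance for the choice of the gene by this difference. These levels rest on 27 to 77 reads in KO/+ libraries and 21 to 28 in WT libraries. Because Rsad2 was picked for its higher level, its separate groups are a description only. Groups that did not overlap, higher in KO/+, were found for 2.16% of all genes and for none of the other members. The reverse, groups that did not overlap and were lower in KO/+, was found for 1.8% of all genes and for 0 of the 9.

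Isg15 encodes a ubiquitin-like protein that is conjugated to other proteins during the response (chr4:156199424-156200818, minus strand). Its level was 1.48, 1.18, 1.15 and 0.677 CPM in the KO/+ libraries, against 0.656, 0.433 and 0.678 CPM in the WT libraries. KO/+ replicates 1 to 3 were above every WT library, and KO/+ replicate 4 lay level with WT replicate 3, just under it. The means were 1.12 ± 0.331 CPM in KO/+ and 0.589 ± 0.135 CPM in WT (SD, n = 4 and 3), a log2 fold change of 0.93 (SE 0.31, 95% interval 0.21 to 1.64). In edgeR's quasi-likelihood test its adjusted p was 0.957, as for Ifit1, Ifit3, Irf7, Oasl2, Bst2, Ifi27 and Usp18.

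The IFIT proteins bind viral RNA and block its translation. Ifit1 (chr19:34640871-34650009, plus strand), which recognises RNA caps that lack a methyl group, had 2.61, 1.70, 0.972 and 0.440 CPM in the KO/+ libraries, against 0.604, 0.487 and 1.08 CPM in the WT libraries. The groups overlapped, with KO/+ replicate 4 the lowest of all 7, and KO/+ over WT gave a log2 fold change of 0.98 (SE 0.56, 95% interval -0.31 to 2.27). Its mean was 1.43 ± 0.939 CPM in KO/+ and 0.722 ± 0.311 CPM in WT (SD, n = 4 and 3). Leaving out KO/+ replicate 1 gave 0.53, and leaving out WT replicate 3 gave 1.39.

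Ifit3 (chr19:34583531-34588731, plus strand), which binds to other IFIT proteins, had 4.95, 4.91, 2.03 and 1.42 CPM in the KO/+ libraries, against 1.47, 1.27 and 4.23 CPM in the WT libraries. KO/+ replicates 1 and 2 and WT replicate 3 were high, and the other 4 libraries were low. KO/+ over WT gave a log2 fold change of 0.52 (SE 0.56, 95% interval -0.78 to 1.81), 1.29 without WT replicate 3 and 0.21 without WT replicate 2. Ifit3 is uncertain in another way, since its near copy Ifit3b holds 51.2% of the stretches of 50 bases in it, and the counting could exchange reads between them. Ifit3b had 1.85, 1.88, 0.736 and 0.406 CPM in the KO/+ libraries, against 0.236, 0.569 and 2.43 CPM in the WT libraries. The sum of the pair, which such an exchange leaves as it is, averaged 4.55 ± 2.63 CPM in KO/+ and 3.40 ± 2.82 CPM in WT (SD, n = 4 and 3), and its groups overlapped as those of Ifit3 did.

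Oasl2 belongs to the oligoadenylate synthetase family, which senses double-stranded RNA (chr5:114896936-114912234, plus strand). It had 2.63, 2.08, 2.12 and 1.66 CPM in the KO/+ libraries, against 1.42, 1.22 and 2.01 CPM in the WT libraries. WT replicate 3 lay between KO/+ replicate 4 and the other KO/+ libraries. Its log2 fold change came to 0.45 (SE 0.24, 95% interval -0.10 to 1.01), from means of 2.12 ± 0.400 CPM in KO/+ and 1.55 ± 0.412 CPM in WT (SD, n = 4 and 3). It was 0.30 without WT replicate 2 and 0.69 without WT replicate 3.

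Bst2, or tetherin, holds budding virus at the cell surface (chr8:71534255-71537456, minus strand). It had 4.52, 2.98, 2.92 and 2.06 CPM in the KO/+ libraries, against 1.92, 1.87 and 2.38 CPM in the WT libraries, so that KO/+ replicate 4 was the only KO/+ library under the highest WT library. The means were 3.12 ± 1.02 CPM in KO/+ and 2.06 ± 0.285 CPM in WT (SD, n = 4 and 3), and the log2 fold change was 0.60 (SE 0.27). Without KO/+ replicate 1 it was 0.37.

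Ifi27 codes for a small hydrophobic protein and was the most abundant of the 9 (chr12:103434211-103440239, plus strand). It had 13.7, 11.9, 10.3 and 4.84 CPM in the KO/+ libraries, against 5.30, 6.17 and 7.76 CPM in the WT libraries. KO/+ replicates 1 to 3 exceeded all WT libraries, and KO/+ replicate 4 was under all of them. The means were 10.2 ± 3.83 CPM in KO/+ and 6.41 ± 1.25 CPM in WT (SD, n = 4 and 3), a log2 fold change of 0.67 (SE 0.32, 95% interval -0.08 to 1.41).

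**Figure D2:**
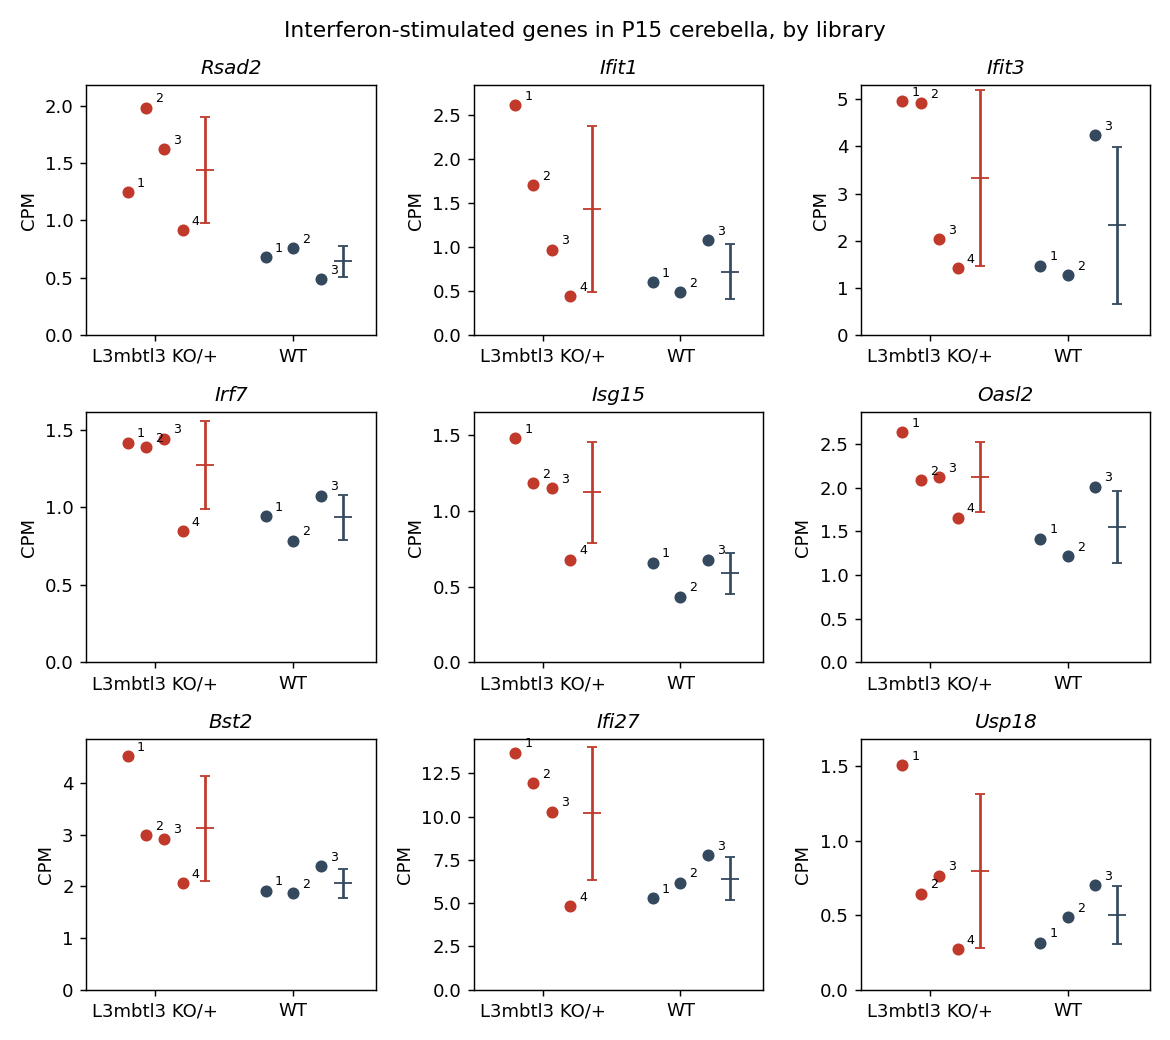
Level in CPM (y axis, starting at 0 in every panel) of each of the 9 interferon-stimulated genes, with KO/+ libraries left of WT libraries; points are libraries, labelled by replicate number, and lines give the mean with the SD. KO/+ replicate 4 is the lowest KO/+ point in all 9 panels, and Rsad2 is the panel in which the groups do not overlap.

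The remaining members regulate the response. Irf7 is the transcription factor that amplifies interferon production (chr7:141262706-141266481, minus strand), and it had 1.42, 1.39, 1.44 and 0.846 CPM in the KO/+ libraries, against 0.945, 0.785 and 1.08 CPM in the WT libraries. KO/+ replicates 1 to 3 were nearly equal and above all WT libraries, with KO/+ replicate 4 between WT replicates 1 and 2. Its log2 fold change came to 0.45 (SE 0.25, 95% interval -0.13 to 1.02), from means of 1.27 ± 0.286 CPM in KO/+ and 0.935 ± 0.145 CPM in WT (SD, n = 4 and 3). Irf7 overlaps Phrf1 on the opposite strand, whose level reached 79.4 CPM. The labels name a directional kit, but the strand setting of the counting is not given. Whether reads of the shared stretch were kept apart is therefore not known.

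Usp18 removes ISG15 from its targets and silences the interferon receptor (chr6:121245906-121270917, plus strand). It had 1.51, 0.643, 0.766 and 0.271 CPM in the KO/+ libraries, against 0.315, 0.487 and 0.701 CPM in the WT libraries. KO/+ replicate 1 stood above the rest, and KO/+ replicate 4, with 8 reads, was the lowest of the 7. Its log2 fold change came to 0.66 (SE 0.53, 95% interval -0.55 to 1.88), 0.17 without KO/+ replicate 1 and 0.99 without WT replicate 3.

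The libraries took similar places from gene to gene. KO/+ replicate 4 was the lowest KO/+ library for 9 of the 9 genes, a place it held for 31.6% of all genes tested. KO/+ replicate 1 was the highest KO/+ library for 7, against 24.0% of all genes, the exceptions being Rsad2 (KO/+ replicate 2) and Irf7 (KO/+ replicate 3). WT replicate 3 was the highest WT library for 8 of the 9, against 43.1% of all genes, and for Rsad2 it was the lowest. Summed over the 9 genes, the level was 34.0, 28.8, 23.3 and 13.1 CPM in the KO/+ libraries, against 13.3, 13.5 and 20.4 CPM in the WT libraries. KO/+ replicate 4 was thus level with WT replicates 1 and 2, and WT replicate 3 lay between them and the other KO/+ libraries.

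**Figure D3:**
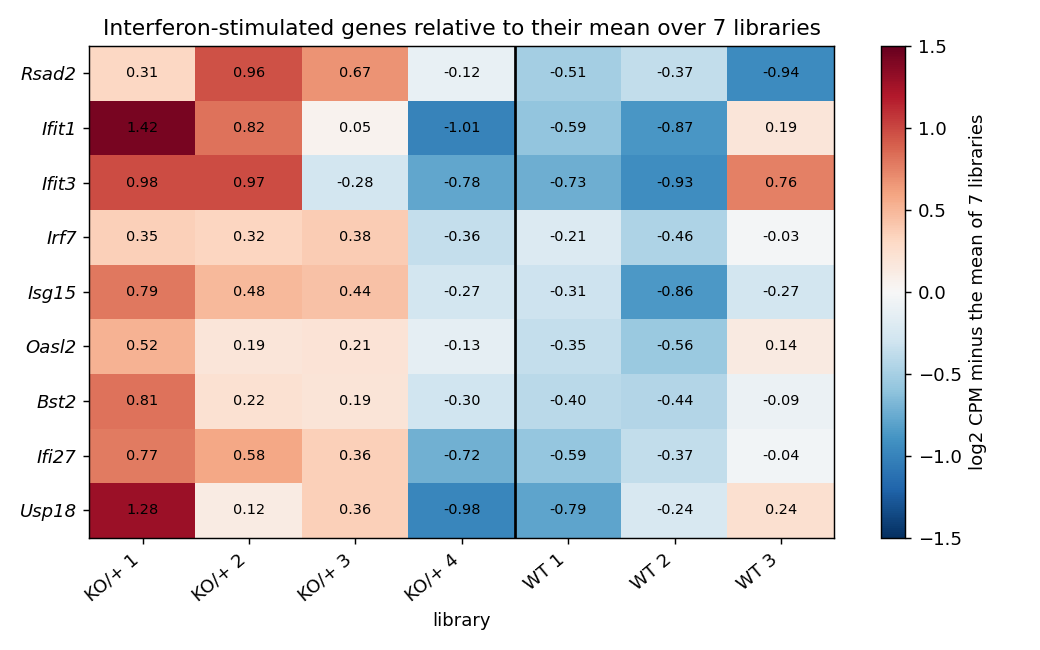
Log2 CPM of each of the 9 interferon-stimulated genes minus its own mean over the 7 libraries (colour and printed value), with KO/+ libraries in the left columns and WT libraries in the right ones. KO/+ replicate 4 and WT replicates 1 and 2 are below the mean for all 9 genes, and WT replicate 3 is above the other WT libraries for every gene but Rsad2.

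The counts of genes moved with single libraries. Without KO/+ replicate 4, 5 of the 8 genes other than Rsad2 had an unadjusted p under 0.05 in edgeR (Ifit1, Irf7, Isg15, Bst2 and Ifi27), with 3.59% of all genes higher at that level. Without WT replicate 3 it was 4 of the 8 (Ifit3, Isg15, Oasl2 and Bst2), with 3.17% of all genes, and without WT replicate 2 it was 0 of the 8. The median log2 fold change of the 9, Rsad2 included, was 0.89 without KO/+ replicate 4, 0.99 without WT replicate 3 and 0.39 without KO/+ replicate 1. None of the 9 passed the adjusted threshold with any 1 library left out, where the smallest adjusted p by edgeR with Benjamini-Hochberg adjustment was 0.489, without KO/+ replicate 4. The fold changes of the 8 genes other than Rsad2 stayed positive with any 1 library left out, as did that of Rsad2. Of all genes, 46.6% were positive without KO/+ replicate 4 and 50.6% without WT replicate 3.

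Whether Rsad2 follows the other members from library to library can be asked without the genotype comparison, from deviations of log2 CPM around each genotype's mean. Over the 7 libraries Pearson's r between Rsad2 and the other 8 genes lay between -0.12 (Oasl2) and 0.48 (Ifi27), and Spearman's rho between -0.11 (Isg15) and 0.29 (Ifi27). In an exact two-sided permutation test of libraries within genotypes, 0 of the 8 pairs passed. That test gave an adjusted p of 0.903 for every Pearson's r and 1 for every rho. Its 144 permutations allow no p under 0.00694. Adjusted over 8 pairs, that smallest p in a single pair would lie above 0.05, so no pair could pass alone. Leaving out the 2 libraries farthest from the median of Rsad2, WT replicate 3 and KO/+ replicate 2, gave r between 0.29 and 0.80. Leaving out KO/+ replicate 4 alone made all 8 values negative, so what relation there was rests on that library. These few libraries show neither that Rsad2 and the others vary together within a genotype nor that they do not.

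Among 14468 genes averaging 1 CPM or more, those most like Rsad2 in their centred log2 CPM over the 7 libraries were Gm28529 (an antisense RNA; root mean square difference 0.193), Gm3650 (an unprocessed pseudogene; 0.248), CT025671.1 (a long intergenic RNA; 0.281), Depdc7 (0.290) and Ppp1r3b (0.343), the last a subunit that directs a phosphatase to glycogen. Among the interferon-stimulated genes the nearest was Isg15 at 0.424, with 39 genes closer. Irf7 was at 0.460, Ifi27 at 0.484, Bst2 at 0.506 and Oasl2 at 0.545. A gene at the same level in all libraries would lie at 0.628, and Ifit1, Usp18 and Ifit3 lay beyond that, at 0.754, 0.754 and 0.851. The measure takes in the difference between genotypes that put Rsad2 on the list.

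The gene beside Rsad2 was among those that did not follow it. Cmpk2, a mitochondrial kinase that makes the CTP used by viperin, starts 12752 bases away on the opposite strand and is known to be induced with it. It had 13.3, 14.4, 12.4 and 8.12 CPM in the KO/+ libraries, against 5.54, 10.5 and 20.1 CPM in the WT libraries. WT replicate 3 was the highest of the 7 and WT replicate 1 the lowest, and KO/+ over WT was 0.00078 on the log2 scale (SE 0.39). Without WT replicate 3 it was 0.59, and without WT replicate 1 it was -0.35.

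Per length of transcript, the 9 genes covered a wide range of levels. Over the 7 libraries Ifi27 averaged 25.9 ± 8.91 TPM, Bst2 9.07 ± 2.75, Isg15 3.28 ± 1.26 and Ifit3 3.05 ± 1.69 TPM (SD). Oasl2 followed at 1.53 ± 0.430 TPM, Irf7 at 1.23 ± 0.531, Ifit1 at 0.713 ± 0.458, Usp18 at 0.707 ± 0.428 and Rsad2 at 0.474 ± 0.225 TPM. Irf7 had 2.41 TPM in KO/+ replicate 3, against 0.93 to 1.21 TPM elsewhere. Its CPM in that library was level with KO/+ replicates 1 and 2, and the TPM includes a noncoding transcript given 0.95 of a read. Ifi27 was above Bst2, Bst2 above Isg15, and Ifit3 above Oasl2 in 7 of 7 libraries. Isg15 and Ifit3, Oasl2 and Irf7, Irf7 and Ifit1, Ifit1 and Usp18, and Usp18 and Rsad2 changed places between libraries, so the order of each of those pairs is not fixed beyond the spread.

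At the level of transcripts, RSEM gave all of Rsad2 to 1 of its 3 transcripts, a protein-coding one, in every library (100%). Ifit1, Ifit3 and Isg15 have 1 transcript each in the files. Usp18-201 had 91.3% in KO/+ replicate 1 and 100% elsewhere, and Bst2-201 had 94.7% in KO/+ replicate 2 and 100% elsewhere. For Oasl2, the transcript marked for nonsense-mediated decay, Oasl2-205, made up 42.0%, 50.4%, 57.5% and 60.8% in the KO/+ libraries, against 26.2%, 44.7% and 45.6% in the WT libraries, and these groups overlapped. Ifi27-205 made up 44.7% to 54.1% in KO/+ and 48.8% to 51.3% in WT. For Irf7 the coding transcript Irf7-201 ranged from 38.4% to 83.3% in KO/+ and from 39.3% to 77.2% in WT. In KO/+ replicate 3 a noncoding transcript of Irf7 was given 42.7% of the total on 0.95 of a read, so these shares are loosely set at such depth.

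The rest of the pathway was examined by lists. The interferon genes themselves were at or near 0 reads. Of 20 ligand genes, 19 had 0 reads in all 7 libraries, and the gene for interferon gamma, Ifng, had 2 reads in KO/+ replicate 1 and 1 in WT replicate 3. A count of 0 allows up to 3 reads in a library, for counting error only. Of the receptors and JAK-STAT genes, 11 were tested and 0 passed the adjusted threshold, as for 0% of all genes. By edgeR, 0 had an unadjusted p under 0.05 in either direction. Their median log2 fold change was 0.057, with a range of -0.097 to 0.24. Irf9, the DNA-binding subunit of that complex, averaged 12.3 ± 0.988 CPM in KO/+ and 10.4 ± 1.49 CPM in WT (SD, n = 4 and 3), a log2 fold change of 0.24 (SE 0.13). Jak1 was at -0.097 (SE 0.077) and the interferon gamma receptor chain Ifngr2 at 0.16 (SE 0.12).

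Among the other interferon regulatory factors, 0 of 6 passed and 1 was positive, with a median log2 fold change of -0.097. By edgeR, 0 had an unadjusted p under 0.05. Irf5 was at -0.22 (SE 0.32), Irf8, a factor of the myeloid line, at -0.12 and Irf2 at -0.079. Of the sensors of nucleic acids and their adaptors, 0 of 12 passed and 6 were positive, with a median of -0.018. By edgeR, 1 (Tlr7) was higher in KO/+ at an unadjusted p under 0.05, against 1.25% of all genes, and 0 were lower. Tlr7, the endosomal receptor for single-stranded RNA, had 1.85, 2.14, 1.86 and 1.08 CPM in the KO/+ libraries, against 0.840, 1.03 and 1.36 CPM in the WT libraries. Its groups overlapped through KO/+ replicate 4, and its log2 fold change was 0.69 (SE 0.28). Ifih1, or MDA5, was at 0.46 (SE 0.24) and Mavs, the adaptor of MDA5, at -0.24 (SE 0.13).

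Of the genes that restrain the response, 0 of 12 passed and 8 were positive, with a median log2 fold change of 0.022. By edgeR, 1 (Ptpn2) was higher in KO/+ at an unadjusted p under 0.05, against 1.25% of all genes, and 0 were lower. Ptpn2, a phosphatase that acts on JAK1, had 37.7, 40.2, 37.0 and 33.0 CPM in the KO/+ libraries, against 29.4, 30.8 and 29.4 CPM in the WT libraries. Its groups did not overlap, and its log2 fold change was 0.31 (SE 0.083), between 0.27 and 0.35 with any 1 library left out. Adar, an editor of double-stranded RNA, had 95.5, 93.3, 95.4 and 117 CPM in the KO/+ libraries, against 110, 110 and 129 CPM in the WT libraries, a log2 fold change of -0.22 (SE 0.10). Here KO/+ replicate 4 lay among the WT libraries and above the other KO/+ libraries. Of the 4 genes that attach ISG15 to proteins, 0 passed and 3 were positive. By edgeR, 1 (Ube2l6) was higher in KO/+ at an unadjusted p under 0.05 and 0 were lower. Ube2l6, the conjugating enzyme, was at 0.36 (SE 0.16), Uba7, the activating enzyme, at 0.17 (SE 0.20) and Herc6, a ligase, at 0.097 (SE 0.20).

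Of 57 further interferon-stimulated genes, 44 were tested, 34 were positive and 0 passed the adjusted threshold of edgeR's test, with a median log2 fold change of 0.20 and a range of -0.61 to 1.27. Of all genes tested, 48.8% were positive. At an unadjusted p under 0.05 by edgeR, 3 of the 44 were higher in KO/+ and 0 lower, against 1.25% and 1.9% of all genes. Isg20, an exonuclease of RNA, had 1.19, 1.75, 1.21 and 0.575 CPM in the KO/+ libraries, against 0.499, 0.298 and 0.841 CPM in the WT libraries, a log2 fold change of 1.10 (SE 0.44). Xaf1, which promotes cell death, averaged 0.958 ± 0.385 CPM in KO/+ and 0.456 ± 0.217 CPM in WT (SD, n = 4 and 3), a log2 fold change of 1.06 (SE 0.45). Sp100, a protein of nuclear bodies, had 1.62, 1.75, 1.91 and 1.22 CPM in the KO/+ libraries, against 0.866, 0.704 and 1.43 CPM in the WT libraries, a log2 fold change of 0.70 (SE 0.29). In all 3 genes KO/+ replicate 4 was the lowest KO/+ library and WT replicate 3 the highest WT library, as for most of the 9. Without KO/+ replicate 4, 8 of 45 tested genes of this list were higher in KO/+ at an unadjusted p under 0.05 by edgeR. Of all genes, 3.59% were. Without WT replicate 3 it was 7 of 47, against 3.17% of all genes. With KO/+ replicate 1, 2 or 3 or WT replicate 2 left out it was 0. The median of the list was 0.12 without KO/+ replicate 1 and 0.34 without WT replicate 3.

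Genes of antigen presentation, many of them induced by interferon gamma, were positive for 12 of 14, with a median log2 fold change of 0.11 and 0 called. Of all genes tested, 48.8% were positive. H2-D1, a class I heavy chain, averaged 123 ± 23.6 CPM in KO/+ and 99.7 ± 17.2 CPM in WT (SD, n = 4 and 3), a log2 fold change of 0.31 (SE 0.17). The class II genes Cd74 and H2-Ab1 were at 0.61 (SE 0.35) and 0.50 (SE 0.29). The summed level of the list was 272, 270, 233 and 192 CPM in the KO/+ libraries, against 195, 192 and 246 CPM in the WT libraries, so the order of libraries was close to that of the 9 genes. Without KO/+ replicate 4, 5 of the 14 were higher in KO/+ at an unadjusted p under 0.05 by edgeR, against 3.59% of all genes. Without WT replicate 3 it was 2, against 3.17% of all genes, and with any other library left out it was 0. The median was 0.058 without KO/+ replicate 1.

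**Figure D4:**
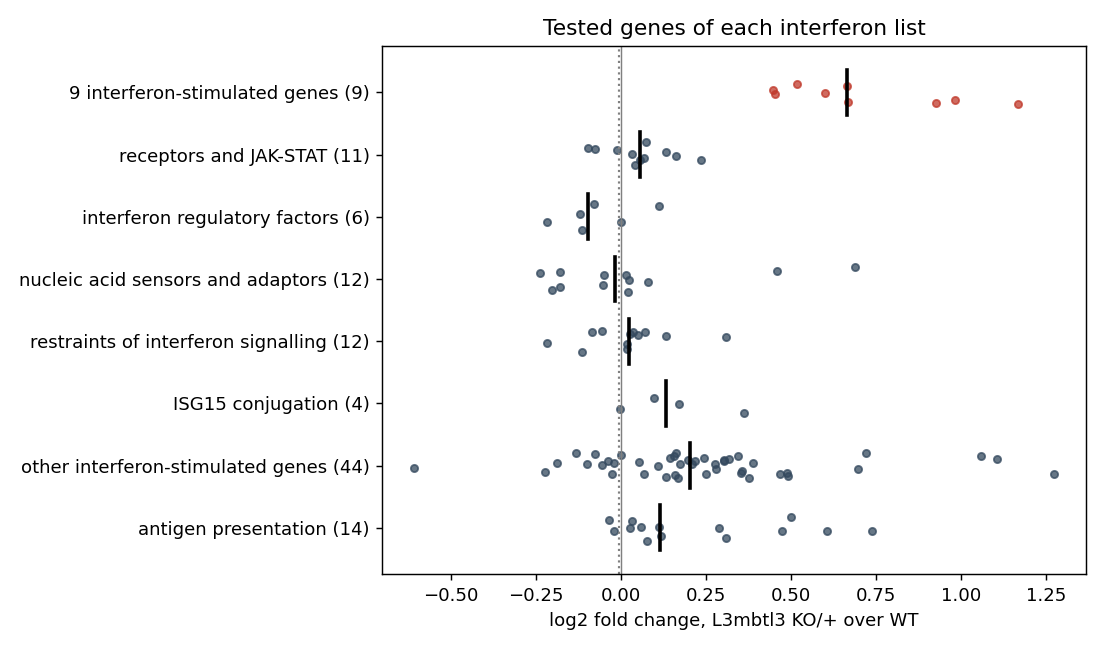
Log2 fold change of KO/+ over WT (x axis) of every tested gene (points) in each list of the interferon pathway (y axis, with the number tested), with a thick line at the median of the list and a dotted line at the median of all genes. The 9 interferon-stimulated genes lie between 0.45 and 1.17 with a median of 0.66, which includes Rsad2, chosen by this contrast. The other interferon-stimulated genes have a median of 0.20. The medians of receptors, regulatory factors, sensors and restraints lie between -0.097 and 0.057.

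Markers of cells and tissues that a dissected cerebellum can hold also differed between libraries. Of the 10 cerebellum markers, 9 were positive, with a median log2 fold change of 0.20. By edgeR, 1 of them was higher in KO/+ at an unadjusted p under 0.05. Astroglia markers were positive for 6 of 8, with a median of 0.10. These medians are close to the 0.20 of the further interferon-stimulated genes and the 0.11 of antigen presentation. The part of these cells was not tested. The 7 red blood cell markers were all positive, with a median log2 fold change of 0.81 and 0 called. By edgeR, 4 were higher in KO/+ at an unadjusted p under 0.05, against 1.25% of all genes. Their summed level was 992, 1391, 926 and 487 CPM in the KO/+ libraries, against 562, 514 and 593 CPM in the WT libraries. As for the 9 genes, KO/+ replicates 1 to 3 were high and KO/+ replicate 4 was not, and none of the markers was at 0. The part of blood in the result was not tested. Choroid plexus markers summed to 1456, 1054, 742 and 50.8 CPM in the KO/+ libraries, against 45.0, 1052 and 50.6 CPM in the WT libraries, with 9 of 10 positive and a median of 0.78. Among the KO/+ libraries these sums fall in the same order as those of the 9 genes. Among the WT libraries they do not, as WT replicate 2 had the high sum of these markers and 13.5 CPM of the 9 genes, next to 13.3 CPM in WT replicate 1. The part of choroid plexus in the result was not tested.

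Microglia markers summed to 222, 240, 203 and 147 CPM in the KO/+ libraries, against 188, 159 and 248 CPM in the WT libraries. Of these 12 markers, 8 were positive with a median of 0.08, none was at 0, and KO/+ replicate 4 was the lowest KO/+ library for 11. At an unadjusted p under 0.05 by edgeR, 0 were higher in KO/+ and 1 was lower, against 1.25% and 1.9% of all genes. The part of microglia in the result was not tested. Of 14 markers of other leukocytes, 4 passed the filter on low counts, and their list summed to 12.7, 17.0, 20.2 and 15.2 CPM in the KO/+ libraries, against 15.5, 14.7 and 15.0 CPM in the WT libraries. The lymphocyte genes Cd3e, Cd3g, Cd8a and Nkg7 had 0 to 3 reads in each library, and the part of leukocytes was not tested. Vascular markers summed to 378, 485, 522 and 355 CPM in the KO/+ libraries, against 347, 400 and 437 CPM in the WT libraries. Meninges markers summed to 356, 574, 576 and 627 CPM in the KO/+ libraries, against 475, 561 and 442 CPM in the WT libraries. In both sums the groups overlapped, none of the markers was at 0, and the part of these cells was not tested. Of the KO/+ libraries, replicate 4 had the highest meninges sum and replicate 1 the lowest, the reverse of the 9 genes. By edgeR, 4 of 10 meninges markers and 0 of 10 vascular markers were higher in KO/+ at an unadjusted p under 0.05. Of all genes, 1.25% were. Cell cycle markers summed to 248, 223, 501 and 559 CPM in the KO/+ libraries, against 604, 637 and 218 CPM in the WT libraries, which sets WT replicate 3 with KO/+ replicates 1 and 2. Of these 10 markers 0 were positive, with a median log2 fold change of -0.32, the opposite sign to the 9 genes, and 0 were called; the part of dividing cells was not tested.

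**Figure D5:**
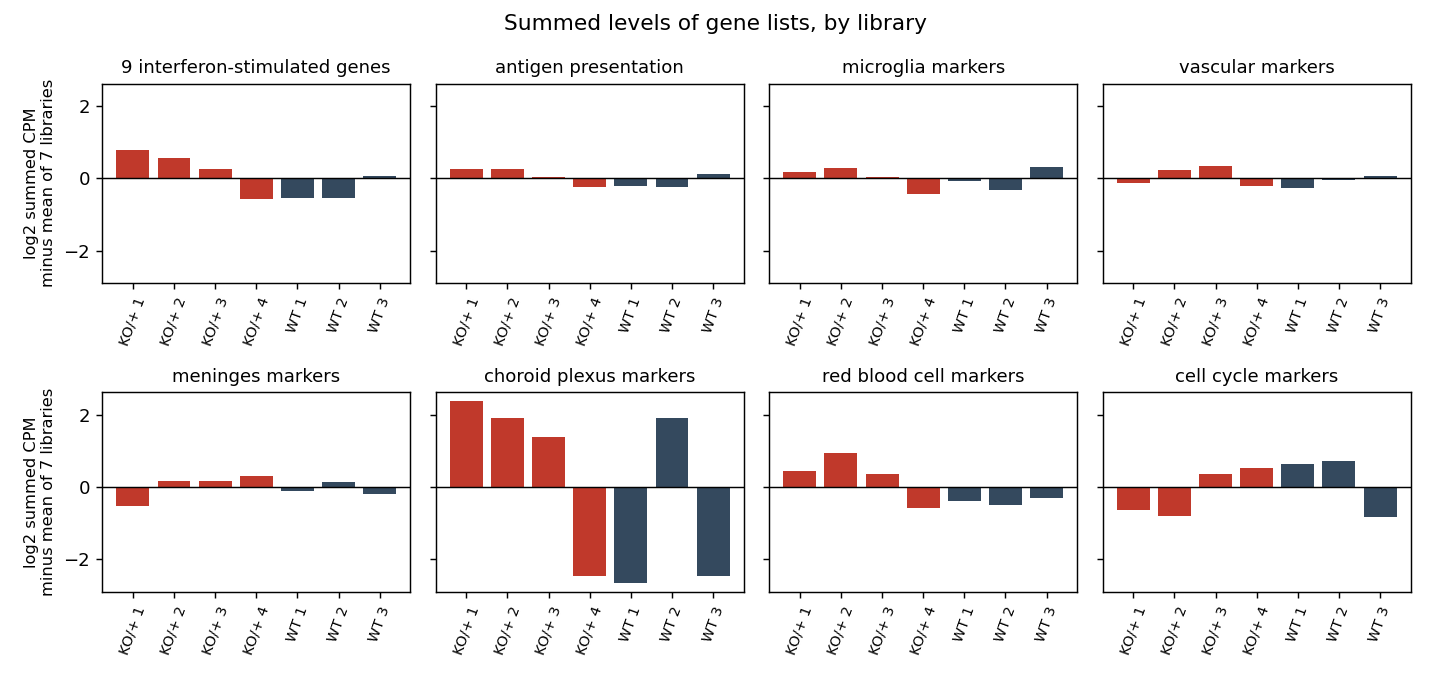
Log2 of the summed CPM minus its mean over the 7 libraries (y axis, bars from 0) for the 9 interferon-stimulated genes and for other lists, in each library (x axis), with KO/+ libraries left of WT libraries. KO/+ replicate 4 is the lowest KO/+ library for the 9 genes, and likewise for antigen presentation and for red blood cell, microglia, choroid plexus and vascular markers. For meninges and cell cycle markers it is the highest KO/+ library.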

How the data were processed

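Polyadenylated RNA of 7 cerebella was sequenced with a directional kit, per the labels. The submitters' processing notes name bcl2fastq, Trimmomatic 0.39, STAR 2.5.2a, RSEM 1.3.1 as tools and mm10 and GRCm38 as builds. The aligner's settings and the strand setting were not given in the sources used here. Per the file headers, the authors deposited expected counts, which RSEM estimates for every gene and which can be fractional. They also deposited TPM, corrected for the length of transcripts and the size of a library, per the file headers. The authors also deposited the isoform percentage, the percent of a gene's output assigned to 1 of its transcripts. All 55450 gene IDs were found in GENCODE M21 (GRCm38), and tables of the whole series were not used.

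Expected counts were rounded to whole numbers, filtered with filterByExpr, scaled by TMM and compared with edgeR 4.0.16 (glmQLFit and glmQLFTest, robust, no covariate), with Benjamini-Hochberg adjustment over 16813 genes and a threshold of 0.05. Intervals are at 95%, and CPM values use TMM-scaled totals. Replicates differed by more than sampling noise, so n was 4 and 3. Correlations within genotypes used exact permutation in SciPy 1.17.1.

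The genes and lists were chosen with earlier results of these data known. Named genes were the 9 members, Cmpk2, Ifit3b, the 3 genes of each list with the smallest p, the 5 genes most like Rsad2 and the 2 most abundant markers of each list, of which some are given; transcripts had to reach 10% in a library. The sum of Ifit3 and Ifit3b was added as a description. Shared sequence was measured in 50-base windows of the annotated transcripts. Alternatives were DESeq2 1.42.0, limma 3.58.1 (voom, and trend on log2(TPM + 1) or log2(TPM + 0.1)), scaling by RLE, by the upper quartile or by totals alone, looser and stricter filters on low counts, the replicate number as a block, a threshold of 0.1 and leaving out each library. The scripts were tested on simulated data.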

Additional observations from a re-analysis of the deposited data

Results flagged for a closer look

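A search for single libraries far from the others, by Dixon's criterion among the 4 KO/+ libraries, was made for 55 values and picked out 3, each of them KO/+ replicate 4. Chance alone picks out about 5% of groups at this level. Irf7 had 0.846 CPM in KO/+ replicate 4, against 1.39 to 1.44 CPM in the other KO/+ libraries. Adar had 117 CPM in KO/+ replicate 4, above the 93.3 to 95.5 CPM of the other KO/+ libraries. Gm3650, a pseudogene that resembled Rsad2 over the libraries, had 0.913 CPM in KO/+ replicate 4, against 1.57 to 1.65 CPM in the other KO/+ libraries. KO/+ replicate 4 was also the library of fewest reads, 29248342.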

How the results depend on the processing

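All 9 fold changes were positive under each alternative in which the gene was tested, with Rsad2 chosen for its positive sign. With at least 1 CPM required in 3 libraries, Usp18 dropped out and 8 of 8, Rsad2 among them, were positive. The size moved most with limma-trend on log2(TPM + 1), where the median was 0.32 in place of 0.66 and Rsad2 was at 0.32. Adding 1 to levels near or below 1 TPM, as for Rsad2, shrinks any log difference, so these values are not on the same scale. On log2(TPM + 0.1) the median was 0.52 and Rsad2 was at 0.86. Members with an unadjusted p under 0.05, counting Rsad2, numbered 2 by edgeR, 4 by DESeq2 and 1 to 6 with 1 library left out; without Rsad2, which this contrast chose, they numbered 1, 3 and 0 to 5. Genes called over the whole table numbered 0 to 1 with 1 library left out: Eif3j2 without KO/+ replicate 4, Wdfy1 without WT replicate 2 and Fam220a without WT replicate 3. With the replicate number as a block, 1 gene was called by edgeR (Eif3j2) and 5 members had an unadjusted p under 0.05 (4 without Rsad2). Over all genes 1029 were at that level, against 530 without the block. KO/+ replicate 4 has no WT library of its number, so under the block it added nothing to the fold changes. The block is thus close to leaving that library out, where Rsad2 was at 1.32, as with the block, and Eif3j2 was also called. Same-numbered libraries correlated at 0.086, -0.17 and -0.022 across genes. Other pairs ran from -0.44 (KO/+ replicate 2 with WT replicate 1) to 0.44 (KO/+ replicate 2 with WT replicate 3). The labels state no pairing, and these values cannot show whether there was any. Of 628 fold changes of 37 named genes under 17 alternatives, 14 turned round. These were in Cmpk2, Ifit3b, Irf5 and Herc6, whose fold changes over all libraries were each smaller than their SE. Cmpk2 was at -0.0062 by DESeq2, -0.0063 with RLE factors and -0.010 with the 1 CPM filter, and -0.35 to 0.59 with 1 library left out; Ifit3b then ran from -0.31 to 1.61, Irf5 from -0.44 to 0.069 and Herc6 from -0.0090 to 0.30. Pearson's r with Rsad2 ran, with 1 library left out, from -0.89 to 0.47 for Bst2, -0.67 to 0.72 for Ifi27, -0.71 to 0.52 for Ifit1, -0.57 to 0.57 for Ifit3, -0.67 to 0.73 for Irf7, -0.74 to 0.55 for Isg15, -0.91 to 0.32 for Oasl2 and -0.85 to 0.46 for Usp18; for Oasl2 it was 0.48 without the 2 farthest libraries. The cause was not tested. Levels near 1 CPM rest on few reads, which limits the precision.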
